A study of Mus musculus with 8 samples.

Results

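Calmodulin and the kinases it switches on were described in sorted multipotent progenitors (MPPs) from bone marrow of mice, in animals that express the fusion gene Nup98-Hoxa10hd (NA) and in wild-type (WT) animals. The 9 genes are a named list taken by symbol from the 37980 gene rows of the table: the calmodulin genes Calm2 and Calm3, and 7 kinase genes, Camk2a, Camk2b, Camk2d, Camk2g, Camk1, Camk4 and Camkk2. All 9 had a row. Both groups were C57BL/6 mice, each library was made from 1000 sorted cells, and there were 4 NA and 4 WT libraries, called here NA1 to NA4 and WT1 to WT4. NA mice were NA LSL/+; Vav-Cre: the fusion sits at the Rosa26 locus behind a stop, which Vav-Cre removes in blood-forming cells. The sources used here do not give the ages of the donors of these libraries, or state whether the WT donors carried Vav-Cre. The sort kept cells without lineage markers, CD48 or CD150 and with c-kit, Sca1 and CD135. No source states that the libraries of a group came from different mice, so the p-values measure only the spread between these libraries.

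Calmodulin is a small protein that takes up calcium ions and then binds and activates other enzymes. Calm2 and Calm3 lie on separate chromosomes and encode one and the same amino acid sequence. Ca2+/calmodulin-dependent protein kinases (CaM kinases) are among those enzymes. CaMKII is a large ring of subunits from the genes Camk2a, Camk2b, Camk2d and Camk2g, and it can stay active after the calcium signal has ended because its subunits phosphorylate each other. Camk2a and Camk2b are best known from neurons, Camk2d and Camk2g from many tissues. CaMKI, from Camk1, and CaMKIV, from Camk4, need an upstream kinase such as CaMKK2, from Camkk2, which also phosphorylates AMPK. In blood, CaMKIV and CaMKK2 are known for roles in the maintenance of stem cells and in myeloid differentiation.

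The values are normalised counts, that is RSEM expected counts per gene that the authors had divided by 1 factor per library. Estimated depth was between 3876908 and 4916987 reads per library. It fell into 2 classes, with at most 3960940 reads in NA4, WT2 and WT3 and at least 4779628 in the other 5 libraries. The sorted population was checked first: Kit was at 1103 normalised counts or more in every library, Flt3 at 1274 or more and Cd34 at 3239 or more, while Cd48 lay between 12.2 and 83.8 and Slamf1, which encodes CD150, between 3.69 and 47.9. Of the 6 genes of the gate, Cd48 (17.7 ± 5.36 in NA, 56.1 ± 21.3 in WT) and Ly6a, which encodes Sca1, were called lower in NA MPPs. Of 8 markers each, the T cell genes Cd3e, Cd3d, Cd3g, Cd8a and Trac and the B cell genes Pax5, Igll1 and Ms4a1 were at 0 in every library, while other genes of both lists were detected. Of the other marker lists, 1 of 2 tested erythroid genes (Hbb-bt), 2 of 4 granulocyte genes (Mpo and Prtn3) and 1 of 3 T cell genes (Lck) were called lower in NA MPPs. Erythroid markers summed to 4522 to 5166 in NA and 4617 to 4830 in WT libraries. Hbb-bt was at most 185 in a library, so most of this sum came from the rest of that list, of which 1 gene was tested and not called. Granulocyte markers, with Elane at 0, summed to 1390 to 1709 in NA and 1750 to 2629 in WT libraries. Most of this was Prtn3, at 1371 to 1677 in NA and 1711 to 2291 in WT libraries. T cell markers summed to 130 to 226 in NA and 205 to 313 in WT libraries. In the lists without a call, the sums in NA and WT libraries were 101 to 239 and 182 to 269 for B cell markers, 1716 to 1798 and 1831 to 2134 for monocyte and macrophage markers, and 2796 to 3097 and 2620 to 2775 for megakaryocyte markers, so that the ranges of the last pair of lists did not overlap, lower in NA for monocyte and higher in NA for megakaryocyte markers. The part of such cells in the results was not tested. Immediate early genes, which respond to stimulation and to cell handling, moved with genotype: 11 of 14 tested were higher in NA MPPs, and their summed level was 42573 to 50116 in NA and 5825 to 17986 in WT libraries, and their part in the results was not tested. Xist was between 869 and 1285 in WT and at most 2.80 in NA libraries, so the sex of the donors and the genotype cannot be told apart. WT4 was close to a weighted sum of WT1 to WT3, with an excess variance of 0.00294 where independent libraries would give 0.0340 over 4762 genes. The ratio of these variances was 0.0866 for WT4, 0.368 for NA4, 0.371 for WT1 and 0.418 for NA2, and between 0.822 and 1.65 for the other 4 libraries, so WT4 stood apart and NA4 did not. Values without WT4 and NA4, the fourth library of each group, are given for Calm3, Calm2, Camk2d and Camk2b and for the shares of Calm3 and Camk2d. They are also given for the counts of called genes, but not for any single pathway gene.

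NA and WT MPPs were compared to ask which of these transcripts change with the fusion. Of the 9 genes, 8 entered the test, and 3 were higher in NA MPPs (Calm3, Camk2d and Calm2), 1 was lower (Camk2b) and 4 did not pass (Camk2a, Camk2g, Camk1 and Camkk2). Over all 11451 genes tested, 10.1% were called higher and 7.87% lower, or 17.9% in either direction. The 8 tested genes were above 10 normalised counts in all 8 libraries, so none entered the test through 1 group alone. The NA and WT ranges did not overlap for 5 of them, which held for 22.0% of all tested genes: 3 with NA higher (11.5% of all) and 2 with NA lower (10.5% of all). Their median log2 fold change was 0.07, against -0.01 over all tested genes. Values with ± are means with the SD over the 4 libraries of a group (n = 4). Calls are limma adjusted p-values below 0.05, Benjamini-Hochberg over all tested genes, and fold changes are on the log2(normalised count + 1) scale. In such bulk libraries, fewer cells of a type and less RNA per cell cannot be told apart.

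**Figure D1:**
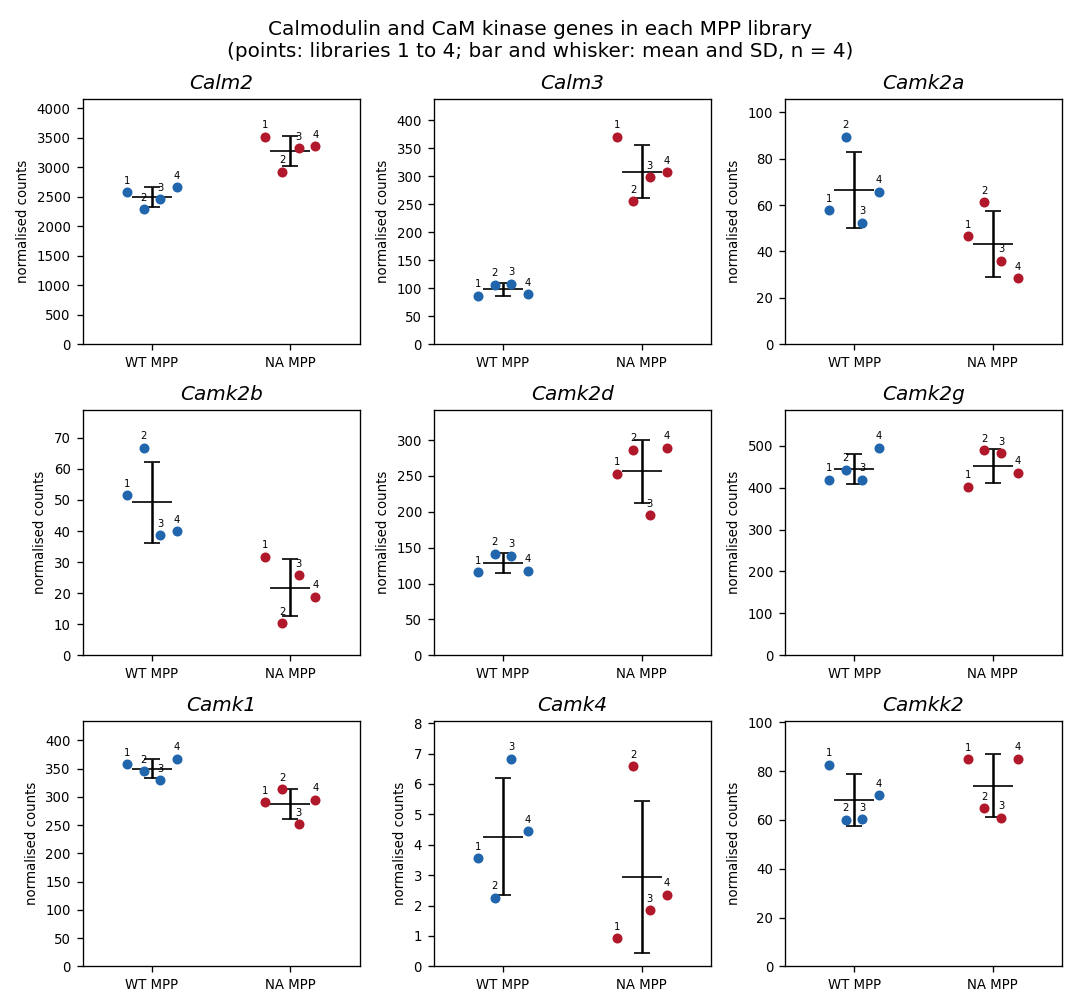
Normalised counts of each gene in the 4 WT MPP and 4 NA MPP libraries, on a linear axis from 0. Points are libraries with their number, the bar is the mean and the whisker the SD over 4 libraries. The groups are apart for Calm2, Calm3, Camk2b, Camk2d and Camk1, overlap for Camk2a, Camk2g and Camkk2, and Camk4 stays below 7 normalised counts in every library.

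The calmodulin genes come first. Because their proteins are the same, the genes are told apart by their nucleotides alone. The start of each coding sequence is shown as an example of such bases. The principal transcripts have 1205 bases for Calm2 and 2290 for Calm3, so most of each transcript lies outside the coding sequence. The sequences below are bases 1 to 90 of the coding sequence, 5′ to 3′, from GENCODE M21 transcripts. Capitals mark the 15 positions at which the genes differ.
Calm2: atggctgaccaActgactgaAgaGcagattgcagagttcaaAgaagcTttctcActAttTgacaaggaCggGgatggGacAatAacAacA
Calm3: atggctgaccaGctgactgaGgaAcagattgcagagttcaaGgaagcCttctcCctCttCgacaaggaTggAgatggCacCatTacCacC
Over the whole coding sequence of 450 bases, Calm2 and Calm3 differed at 78 bases, 82.7% being identical, and their longest identical run was 17 bases. Of all 50-base windows in the transcripts, none was shared by Calm2 and Calm3. Of the windows of Calm2, 9.72% also occurred in 3 other annotated genes, Gm7308, Gm15720 and Gm14480, whose means were 0.233, 0.488 and 0 normalised counts. Of the windows of Calm3, 2.52% also occurred in Gm5881, whose values are not analysed here, so a small part of its reads is uncertain.

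Calm3 (ENSMUSG00000019370, chromosome 7) had the largest fold change of the 9 genes. It was at 371, 256, 298 and 307 normalised counts in NA1 to NA4 and at 87.0, 106.5, 108 and 89.7 in WT1 to WT4. Every NA library was above every WT library, and the lowest NA value was more than 2 times the highest WT value. Means were 308 ± 47.4 for NA and 97.8 ± 11.0 for WT, a ratio of 3.15. The log2 fold change was 1.64 with a standard error of 0.154 and a 95% interval from 1.31 to 1.97 (limma adjusted p = 9.71e-06). Without the fourth libraries it was 1.60 (limma adjusted p = 0.000692). Within the deeper libraries the log2 difference was 1.78 and within the shallower ones, with NA4 alone on the NA side, 1.51.

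Calm2 (ENSMUSG00000036438, chromosome 17) was the most abundant of the 9 genes. It was at 3522, 2928, 3326 and 3361 normalised counts in NA1 to NA4 and at 2582, 2286, 2456 and 2664 in WT1 to WT4. The groups did not overlap, although NA2, the lowest NA library, was near WT4, the highest WT library. The means were 3284 ± 252 and 2497 ± 164, a ratio of 1.32. The log2 fold change was 0.39 with a standard error of 0.0801 and a 95% interval from 0.22 to 0.57 (limma adjusted p = 0.00431), an interval that does not reach that of Calm3. Without the fourth libraries it was 0.41 (limma adjusted p = 0.0322). The log2 difference was 0.31 within the deeper libraries, where the call was lost (limma adjusted p = 0.112 with 3 NA and 2 WT libraries), and 0.50 within the shallower ones.

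Calm2 and Calm3 were thus both higher in NA MPPs, by different factors. The summed normalised counts of Calm2 and Calm3 were 3893, 3184, 3624 and 3668 in NA1 to NA4 and 2669, 2393, 2564 and 2754 in WT1 to WT4, a ratio of means of 1.38. Calm3 held 8.54% ± 0.670 of this sum in NA and 3.80% ± 0.628 in WT libraries, a difference of 4.74 percentage points that was 4.62 without the fourth libraries. Its share was 8.03% in the lowest NA library and 4.45% in the highest WT library, and Calm2 held the larger share in every library. These are shares of reads, not of molecules, since the transcripts differ in length, and they were not tested.

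**Figure D2:**
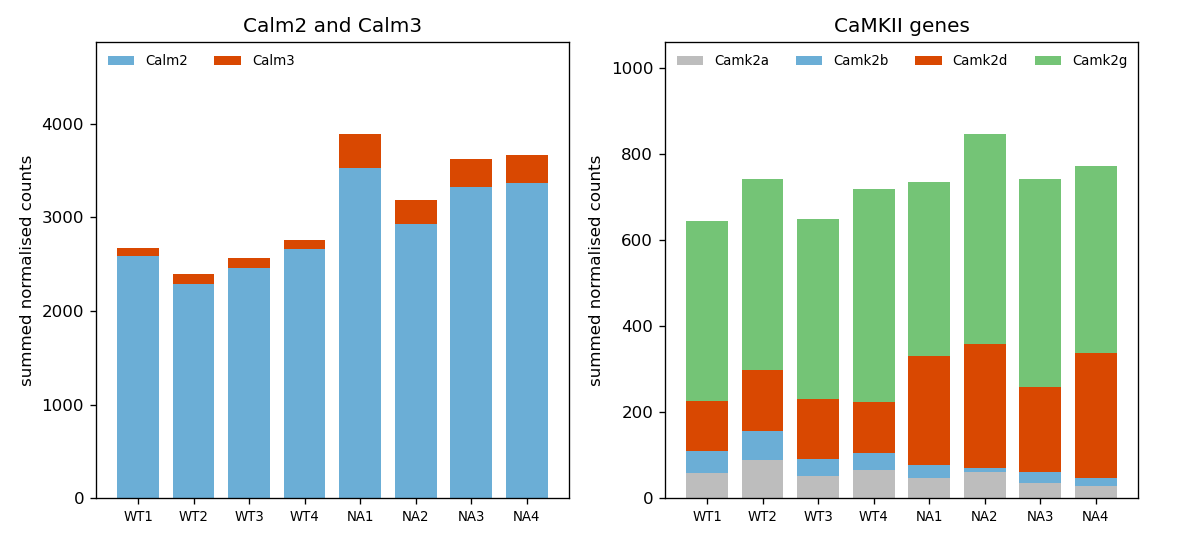
Summed normalised counts in each library (vertical axis, linear from 0), stacked by gene, for Calm2 and Calm3 on the left and the CaMKII genes on the right. WT libraries stand left of NA libraries in both panels. The sum of Calm2 and Calm3 lies between 2393 and 2754 in WT and between 3184 and 3893 in NA libraries, while the CaMKII sums of the groups overlap and the Camk2d part is taller in the NA libraries.

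The CaMKII genes went different ways. Camk2d, which encodes the delta subunit, rose, Camk2b, which encodes the beta subunit, fell, and Camk2a and Camk2g did not pass the test.

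Camk2d (ENSMUSG00000053819, chromosome 3) was at 253, 287, 196 and 289 normalised counts in NA1 to NA4 and at 116, 142, 139 and 118 in WT1 to WT4. The groups did not overlap, and NA3 was the lowest NA library. Means were 256 ± 43.6 for NA and 129 ± 13.4 for WT, a ratio of 1.99. The log2 fold change was 0.98 with a standard error of 0.157 and a 95% interval from 0.64 to 1.31 (limma adjusted p = 0.000889). Without the fourth libraries it was 0.87 (limma adjusted p = 0.0304), and the log2 difference was 1.04 within the deeper and 1.04 within the shallower libraries. No 50-base window of its transcripts occurred in another gene elsewhere. Within its locus lie Gm15551 on the opposite strand, listed at 0 in every library, and several short unclassified annotations on the same strand whose values are not analysed here.

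Camk2b (ENSMUSG00000057897, chromosome 11) was at 31.7, 10.3, 25.9 and 18.9 normalised counts in NA1 to NA4 and at 51.5, 66.8, 38.7 and 40.0 in WT1 to WT4. Every NA library was below every WT library, at a level where few reads stood behind a value, from 11 to 59 estimated reads per library. The means were 21.7 ± 9.22 and 49.2 ± 13.0, and the level in WT MPPs was 2.27 times that in NA MPPs. It fell by 1.22 on the log2 scale, with a standard error of 0.362 and a 95% interval from -1.99 to -0.44 (limma adjusted p = 0.0322). The call was lost when single libraries were left out, with limma adjusted p-values of 0.0757 without NA2, 0.0844 without NA4, 0.0740 without WT1, 0.0874 without WT2 and 0.0623 without WT4. The log2 fold change was then -0.92 without NA2 and between -1.30 and -1.06 without NA4, WT1, WT2 or WT4. The adjusted p was 0.150 without the fourth libraries, at a log2 fold change of -1.28. The log2 difference was -1.11 within the deeper and -1.38 within the shallower libraries.

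Camk2a (ENSMUSG00000024617), which encodes the alpha subunit, was at 46.7, 61.1, 36.0 and 28.3 normalised counts in NA1 to NA4 and at 57.7, 89.5, 52.4 and 65.7 in WT1 to WT4. NA2 lay within the WT range and the other NA libraries below it. The log2 fold change was -0.64 with a 95% interval from -1.24 to -0.04 (limma adjusted p = 0.132), so the test was not passed. Camk2g (ENSMUSG00000021820), which encodes the gamma subunit, was at 402, 489, 483 and 436 in NA1 to NA4 and at 419, 443, 419 and 495 in WT1 to WT4. The ranges coincided almost entirely, with a log2 fold change of 0.03 and a 95% interval from -0.20 to 0.25 (limma adjusted p = 0.893).

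The share of each gene in the summed normalised counts of the CaMKII genes was described next. The sum of the 4 genes was between 734 and 847 normalised counts in NA and between 645 and 741 in WT libraries. These ranges overlapped, with means of 773 ± 51.9 and 688 ± 48.8, a ratio of 1.12. Camk2d held 33.1% ± 4.69 of it in NA and 18.7% ± 2.09 in WT libraries, a difference of 14.3 percentage points that was 12.1 without the fourth libraries. Camk2b held 2.87% ± 1.34 and 7.13% ± 1.65, and Camk2a 5.53% ± 1.57 and 9.56% ± 1.74. Camk2g held the largest share in every library, 58.5% ± 4.60 in NA and 64.6% ± 3.73 in WT. These, too, are shares of reads, not of molecules or of protein subunits, since the transcripts differ in length, and they were not tested.

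Among the remaining kinases no call was made. Camk1 (ENSMUSG00000030272, chromosome 6) was at 290, 314, 251 and 295 normalised counts in NA1 to NA4 and at 358, 345, 329 and 368 in WT1 to WT4. Each NA library was below each WT library, which held for 10.5% of all tested genes. The means were 288 ± 26.4 and 350 ± 16.6, with a log2 fold change of -0.29 and a 95% interval from -0.52 to -0.05 (limma adjusted p = 0.0920). Camk1 overlaps Ogg1 on the opposite strand, and Ogg1 had a mean of 11.6 normalised counts. The library kit does not mark strand, so reads in the overlap cannot be told apart.

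Camkk2 (ENSMUSG00000029471, chromosome 5), the upstream kinase of CaMKI and CaMKIV, was at 84.9, 64.9, 60.9 and 85.0 normalised counts in NA1 to NA4 and at 82.6, 60.0, 60.3 and 70.1 in WT1 to WT4. The groups overlapped, with a log2 fold change of 0.11 and a 95% interval from -0.35 to 0.57 (limma adjusted p = 0.758). Camk4 (ENSMUSG00000038128) was barely detected, at 0.933, 6.58, 1.85 and 2.36 in NA1 to NA4 and at 3.55, 2.27, 6.83 and 4.44 in WT1 to WT4. This is 1 to 7 estimated reads per library, under the minimum for the test, and 3 reads correspond to between 2.66 and 3.54 normalised counts. A difference in Camk4 was not detectable at this depth.

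**Figure D3:**
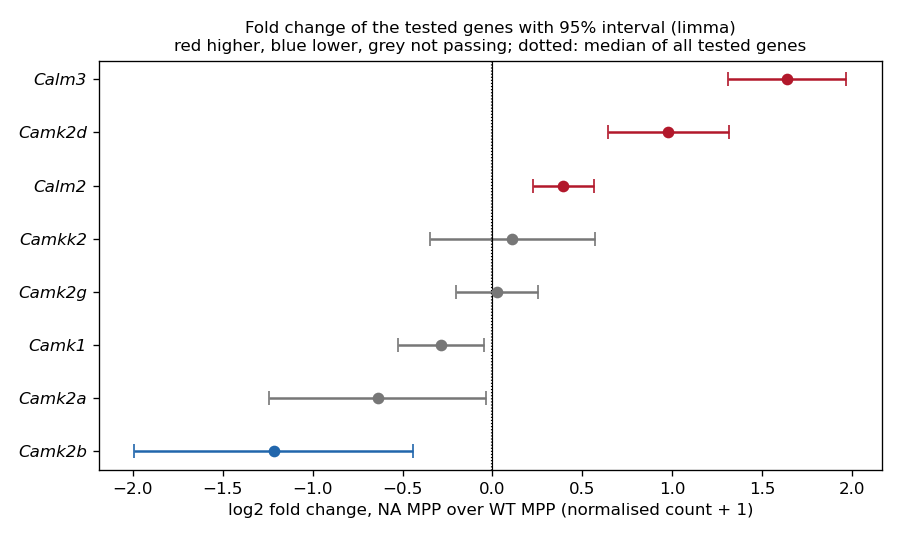
Log2 fold change of NA over WT MPPs (horizontal axis, log2 of normalised count + 1) for the 8 tested genes, with 95% intervals from limma. Red genes passed as higher, blue as lower and grey genes did not pass. Calm3, Camk2d and Calm2 lie right of 0 with their whole interval, Camk2b left of it, and the intervals of Camkk2 and Camk2g span 0.

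Levels of different genes were set side by side per kilobase of the principal GENCODE M21 transcript, as a description. In WT MPPs the order was Calm2 at 2072 ± 137 normalised counts per kilobase, Camk1 at 234 ± 11.1, Camk2g at 120 ± 9.73, Calm3 at 42.7 ± 4.82, Camkk2 at 24.8 ± 3.86, Camk2d at 23.3 ± 2.42, Camk2a at 13.3 ± 3.30, Camk2b at 12.6 ± 3.35 and Camk4 at 1.57 ± 0.709. Camkk2 and Camk2d did not differ beyond their spread, nor did Camk2a and Camk2b. In NA MPPs Calm3, at 134 ± 20.7, stood above Camk2g, at 122 ± 11.1, although their spreads overlapped, and Camk2d, at 46.4 ± 7.89, stood above Camkk2, at 26.9 ± 4.67. Calm2 RNA per kilobase was thus far above that of each kinase in both groups, and Camk1 had the highest level of the kinases. Transcripts of these genes have several lengths, so such levels are approximate.

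Promoter sequences were available for 5 of the 9 genes, as windows from 250 bases before to 50 bases after the RefSeq start site in GRCm38.p6. The labels name mm10, which is the same assembly. Those of Calm3 and Camk2d are shown because these genes rose most. That of Camk1, which was not called, is shown because its window held TGACG, so this choice followed the motif. The window of Camk2b, the gene called lower, held no TGACG and is not shown. CREB and its relatives, which CaM kinases can phosphorylate, bind the cAMP response element TGACGTCA, and TGACG is its core. Capitals mark matches to TGACGTCA, TGACG or the AP-1 motif TGANTCA on either strand, 5′ to 3′ in the direction of the gene, where a TGACGTCA would contain the core.
Calm3, chr7:16923983-16924282, minus strand: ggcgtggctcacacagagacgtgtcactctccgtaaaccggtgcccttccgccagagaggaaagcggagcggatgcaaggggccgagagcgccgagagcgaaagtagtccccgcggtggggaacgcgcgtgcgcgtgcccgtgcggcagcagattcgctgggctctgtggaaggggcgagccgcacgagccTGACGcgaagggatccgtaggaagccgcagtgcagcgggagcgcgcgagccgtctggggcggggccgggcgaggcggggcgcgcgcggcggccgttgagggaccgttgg
Camk2d, chr3:126596701-126597000, plus strand: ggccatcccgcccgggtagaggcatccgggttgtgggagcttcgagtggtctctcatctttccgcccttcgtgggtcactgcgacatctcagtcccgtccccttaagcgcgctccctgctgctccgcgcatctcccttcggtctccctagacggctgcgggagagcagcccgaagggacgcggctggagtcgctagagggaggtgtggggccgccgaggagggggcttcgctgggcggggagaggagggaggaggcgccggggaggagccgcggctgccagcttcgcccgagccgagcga
Camk1, chr6:113343873-113344172, minus strand: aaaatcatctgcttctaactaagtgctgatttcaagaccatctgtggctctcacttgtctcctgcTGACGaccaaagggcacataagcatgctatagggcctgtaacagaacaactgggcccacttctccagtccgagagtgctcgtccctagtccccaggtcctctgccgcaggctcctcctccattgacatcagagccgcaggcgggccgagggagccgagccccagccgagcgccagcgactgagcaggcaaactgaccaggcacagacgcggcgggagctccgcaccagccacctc
The core TGACG occurred 1 time in the window of Calm3, 59 bases before the start, and 1 time in that of Camk1, 185 bases before it. It was absent from those of Camk2b, Camk2d and Camkk2. Over 32851 promoter windows of the same length, 20.8% held it, so 2 of 5 is no more than a description. The full TGACGTCA, held by 1.79% of all windows, and TGANTCA, held by 7.81%, were not in any of the 5, and neither were the Meis motif TGACAG (19.2% of all windows) or the Hox motif TTTATNG (10.9%). The Sp1 box GGGCGG, held by 35.7% of all windows, occurred in all but that of Camk1, and CCAAT, held by 37.4%, only in that of Camkk2. The windows were rich in G and C, from 60.0% for Camk1 to 77.3% for Camk2b.

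The wider calcium and calmodulin pathway was described with 6 lists, which together gave 74 tested genes. Of these, 12 were higher and 6 lower in NA MPPs by limma, 24.3% in either direction against 17.9% over all tested genes, with a median log2 fold change of 0.0035. Without the fourth libraries 6 were higher and 1 was lower. Of all 11494 genes then tested, 375 were higher and 144 lower, against 1152 and 901 with all libraries. The lists thus held genes of both directions and no common shift of the median.

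Of 6 tested genes in the rest of the family list, Eef2k was higher and none was lower. Eef2k, a calmodulin-dependent kinase that slows translation elongation, was at 517 ± 66.0 against 268 ± 128, with WT3 at 83.5 (log2 fold change 1.14, limma adjusted p = 0.0333). Camkk1, the relative of Camkk2, was at 121 ± 22.2 and 163 ± 5.69 and did not pass (limma adjusted p = 0.0771). Camk1d (limma adjusted p = 0.741) and Ppm1f, which encodes a phosphatase of CaM kinases (0.546), did not pass either, and Camk2n1, which encodes a CaMKII inhibitor, was at most 11.4 normalised counts in a library and was not tested. Among 11 tested proteins that bind calmodulin, Marcksl1 and Iqgap2 were higher and Myo5a, an unconventional myosin with calmodulin as light chain, was lower. Marcksl1, a membrane protein that calmodulin can displace, was at 947 ± 225 and 386 ± 44.2 (log2 fold change 1.27, limma adjusted p = 5.28e-05), and Myo5a fell by 0.53 on the log2 scale (limma adjusted p = 0.00183). Pde1c and Nrgn did not pass (limma adjusted p = 0.376 and 0.166).

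Calcineurin is the phosphatase that calmodulin activates, and it moves NFAT factors into the nucleus. Of 11 tested genes of this branch none was higher and 3 were lower, Ppp3r1, Rcan1 and Nfat5. Ppp3r1, the regulatory subunit of calcineurin, was at 292 ± 51.1 against 423 ± 28.9 (log2 fold change -0.54, limma adjusted p = 0.0109). Rcan1, an inhibitor of calcineurin, was at 53.3 ± 5.40 and 86.9 ± 8.65 (log2 fold change -0.69, limma adjusted p = 0.0274). The catalytic subunit genes Ppp3ca (limma adjusted p = 0.0724), Ppp3cb (0.842) and Ppp3cc (0.399) did not pass. Of 20 tested genes for calcium entry, release and pumping, Stim1 and Atp2b1 were higher and none was lower. Stim1, the calcium sensor of the endoplasmic reticulum, was at 282 ± 65.5 against 138 ± 19.6 (log2 fold change 1.01, limma adjusted p = 0.00125). Atp2b1, a calcium pump of the plasma membrane that calmodulin stimulates, was at 200 ± 21.6 against 104 ± 14.4 (log2 fold change 0.94, limma adjusted p = 0.00142). Itpr3 and Plcb3, which had the lowest fold changes of that list, did not pass (limma adjusted p = 0.132 and 0.403).

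Nuclear proteins that CaM kinases can reach gave 5 higher genes and 1 lower gene of 16 tested. Hdac4, a repressor that CaMKII can drive out of the nucleus, was at 52.7 ± 11.7 against 12.9 ± 6.84 (log2 fold change 2.09, limma adjusted p = 0.00382). Crebbp, the coactivator that binds phosphorylated CREB, was at 120 ± 25.9 and 40.8 ± 11.1 (log2 fold change 1.55, limma adjusted p = 0.0011). Creb1 itself was higher by 0.31 on the log2 scale (limma adjusted p = 0.0378), Atf1 and Mef2c were also higher, and Crtc1, a CREB coactivator, was lower at -0.55 (limma adjusted p = 0.0238). Crem and Hdac9 did not pass (limma adjusted p = 0.852 and 0.663). Of 10 tested genes of AMPK and its upstream kinase LKB1, Cab39 and Prkaa2 were higher and Stradb was lower. Cab39, a scaffold of LKB1, had the largest fold change of the 6 lists, at 525 ± 115 against 115 ± 19.0 (log2 fold change 2.17, limma adjusted p = 2.43e-06). Prkaa2, a catalytic subunit of AMPK, was at 39.4 ± 11.5 and 17.6 ± 4.30, Stradb at 104 ± 18.4 and 171 ± 43.3, and Strada did not pass (limma adjusted p = 0.0765).

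**Figure D4:**
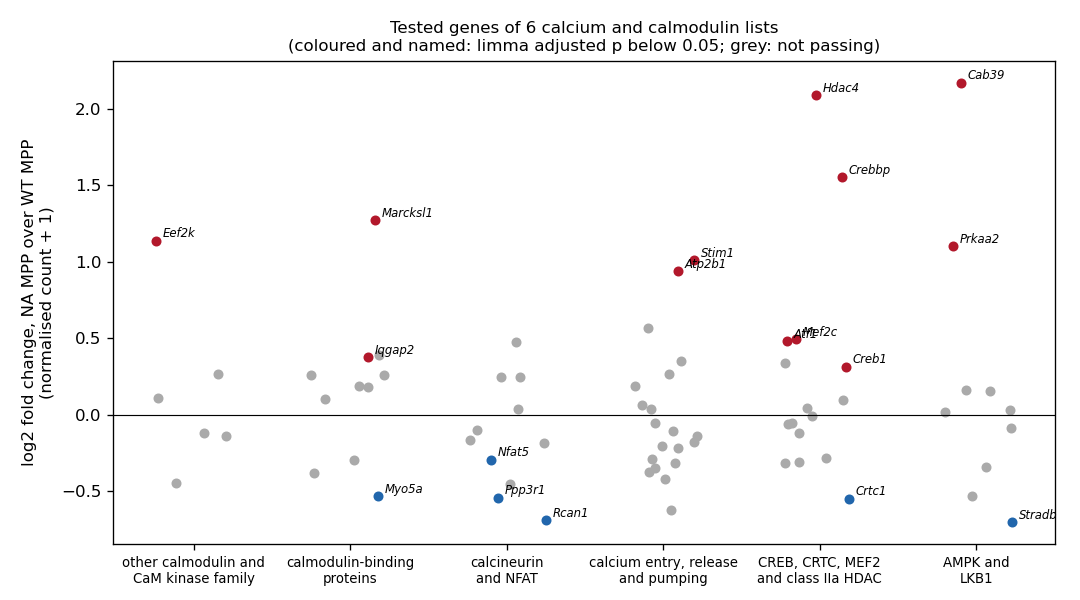
Log2 fold change of NA over WT MPPs (vertical axis, log2 of normalised count + 1) for the tested genes of 6 lists, with 1 point per gene and a small random sideways shift. Red and blue points with names passed the limma test as higher (12 genes) or lower (6 genes), and grey points did not pass. The highest points are Cab39 at 2.17 and Hdac4 at 2.09, and the named points of the calcineurin and NFAT list are all blue.

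Genes with the profile most like each of these genes were named by the root mean square difference of centred log2 values over the 8 libraries, among the 9000 genes that averaged 50 normalised counts or more. The difference between the genotypes is part of each profile, so this is a description. Closest to Calm3 were Nadk2 (0.148), Aldh1a1 (0.168) and Ppp1cb (0.178), which were at 675, 232 and 2348 normalised counts in NA and 228, 78.8 and 863 in WT MPPs. Closest to Camk2d were Tdp2 (0.114), Kpna3 (0.133) and Wdr1 (0.145), and closest to Calm2 were Fnbp1l (0.0476), Wtap (0.0612) and Cryl1 (0.0692). Dut (0.0447), Cnot7 (0.0494) and Fnbp4 (0.0552) were closest to Camk1. Close to Camk2a lay F8a (0.180) and Plekho1 (0.193). Camk2g lay closest to Agpat5 (0.0634), Hnrnpab (0.0689) and Mcmbp (0.0691), and Camkk2 to Lrrc49 (0.0701), Zfp943 (0.0796) and Hltf (0.0877). None of these genes is on the list of 9.

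**Figure D5:**
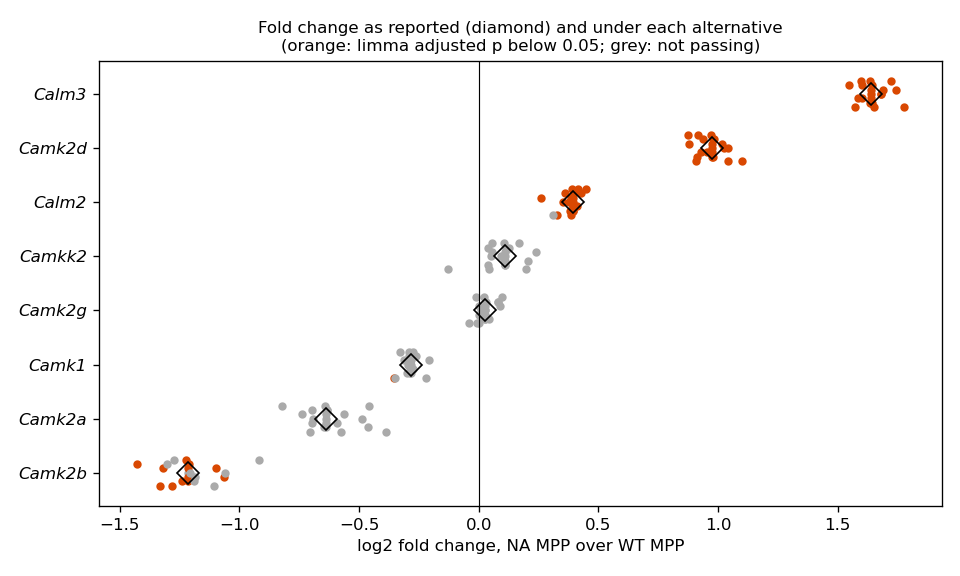
Log2 fold change of NA over WT MPPs (horizontal axis) for the 8 tested genes as reported (open diamonds) and under each of 21 alternatives (points), orange where the limma adjusted p was below 0.05 and grey where it was not. Calm3 and Camk2d are orange under all 21, Calm2 under 20 and Camk2b under 12.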

How the data were processed

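RNA of 4 NA and 4 WT MPP libraries, 1000 cells each, was measured by sequencing of amplified cDNA after tagmentation. The authors quantified genes with RSEM and normalised them with DESeq2. The deposited values are a signal: expected counts divided by 1 size factor per library, as read from the steps in their low values, since the table is named as raw. Per the labels the build was mm10. Versions, annotation and strand use are not given in the sources used here. Between 98.2% and 98.8% of low values per library were integer multiples (within 0.01 reads) of 1 step, the worth of a read, which gave the estimated depth. Depths and floors cover counting error only.

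Symbols, lengths and transcripts came from GENCODE M21, which named 32916 of 37980 rows. All 8 columns were used. The groups were compared on log2(normalised count + 1) by limma (version 3.58.1, R 4.3.3), with a mean-variance trend and no covariate, for genes with at least 10 in at least 4 libraries. The method was tested on simulated data with 200 changed genes and independent libraries. That setting does not cover a library as close to the others of its group as WT4. Groups came from the sample titles. The genes, lists and tests were chosen with earlier results of these data known. Named genes were all 9, the 2 highest and 2 lowest of each list, further genes fixed by name, and the 3 closest profiles among rows with a symbol. Genes named beyond this because they completed a count were chosen after their values were seen. Alternatives changed the pseudocount, filter, scaling, variance trend, covariates and libraries. Some genes that these rules name are not reported here.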

Additional observations from a re-analysis of the deposited data

Results flagged for a closer look

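Within each group, the highest and lowest library were compared with their neighbour by the 95% criterion of Dixon for 4 values. The 9 genes, the pathway and immediate early genes picked by the naming rule, and the shares gave 110 groups. Of these 2 met the criterion, where chance gives about 5.5. The groups are not all independent, since the shares of Calm2 and Calm3 mirror each other. Plcb3, a phospholipase upstream of calcium release, was at 38.8 normalised counts in NA3, against 8.27 to 13.1 in the other NA libraries. Crtc1 was at 177 normalised counts in WT1, against 146 to 149 in the other WT libraries. Neither is a calmodulin or CaM kinase gene, and no value of the 9 genes was singled out.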

How the results depend on the processing

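Calm3 and Camk2d were called higher under all 21 alternatives, with log2 fold changes from 1.54 to 1.78 and from 0.87 to 1.10. Calm2 was called under 20 and Camk2b under 12. Over all 21 alternatives, called or not, their log2 fold changes ran from 0.26 to 0.45 and from -1.43 to -0.92. The number of the 9 genes called lower, 1 as reported, was 0 with no filter, 0 with depth class as covariate, 0 without the fourth libraries, 0 within the deeper libraries and 2 with total-count scaling, where Camk1 passed (-0.35, limma adjusted p = 0.0413). It was 0 to 1 when 1 library was left out, and the number called higher was then 3. That number, 3 as reported, was 2 within the deeper libraries and 3 under the other 20 alternatives. Pathway genes called lower, 6 as reported, were 10 with total-count scaling, 3 with depth class as covariate, 1 without the fourth libraries and 0 within the deeper libraries. Those called higher, 12 as reported, were 6 without the fourth libraries and 7 within the deeper ones. Leaving out 1 library gave 7 to 11 higher and 2 to 7 lower pathway genes. Camk2g, which was not called, changed sign to -0.0428 with total-count scaling, and lay between -0.0127 and 0.0808 when 1 library was left out, below 0 without NA2 (-0.0127), NA3 (-0.0068), WT1 (-0.00078) or WT3 (-0.00083). Camkk2 changed sign to -0.13 within the deeper libraries. Over all genes, 1152 were higher and 901 lower as reported, 925 and 1314 with total-count scaling, which moved the median of all genes from -0.011 to -0.079. The 2053 calls became 1130 without NA4, 1271 without WT4, 519 without the fourth libraries and 571 within the deeper ones. The causes were not tested. The fit within the deeper libraries, with 3 NA and 2 WT libraries, was chosen after seeing the data.

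Libraries of the 2 groups share numbers. Deviations from the group means of same-numbered libraries correlated at 0.087, 0.027, 0.013 and 0.16, so the numbers were not taken to pair them. Not every library correlated best with its own number. With the number as a replicate block, 2004 genes were called in all. Of the 9 genes 3 were higher and 1 lower, and of the pathway genes 10 were higher and 5 lower. Each number has 1 library of each group, so the block cannot change the log2 fold changes, 1.64 for Calm3 and -1.22 for Camk2b. It changes their errors, and the limma adjusted p of Camk2b was 0.0488. The 2 planned count models were not run, because the check of recovered whole reads failed on fractional values. No count model therefore stands behind the calls. Depth limits Camk4 and Camk2b most.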
